A study of Mus musculus with 24 samples.

Results

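Ucn3 and Edn3, 2 of the 14027 genes in the expression table, encode signalling peptides of mouse pancreatic islets. They were taken by symbol and were chosen by their levels in the 2 cell types, as the pair in which one peptide gene is restricted to beta cells and the other to alpha cells. That difference between the cell types is therefore given below as a description with no test. The level of each gene in both cell types was thus part of the choice. Tests are given for the time courses, for the variation between libraries of 1 cell type and for other genes of both signalling systems.

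Ucn3 encodes a peptide of the corticotropin-releasing factor family that is used as a marker of mature beta cells. The peptide is released with insulin and acts on the receptor Crhr2 of neighbouring delta cells, which then release somatostatin and restrain islet hormone secretion. Edn3 encodes an endothelin, a short peptide cut from its precursor by furin-type proteases and endothelin-converting enzymes, which binds the receptors Ednra and Ednrb. Endothelins are best known for constricting vessels and for guiding neural crest cells, and their receptors couple mainly to Gq proteins and calcium release.

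The study measured total RNA, after removal of ribosomal RNA, in pancreatic alpha cells and pancreatic beta cells of a triple reporter mouse strain. Islets were isolated at zeitgeber time (ZT, hours after lights on) 0, 4, 8, 12, 16 and 20. Each cell type at each time had 2 libraries, which gives 12 alpha and 12 beta libraries. Every library came from the same reporter strain, whose alleles and drivers, like the age of the mice and any pooling, the labels leave unstated. Nor do they tie the 2 libraries of a time point to separate mice, so the p-values below reflect the spread from library to library, which may be technical.

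The libraries held 4944982 to 12364190 reads in listed genes. The labels fitted the marker genes: summed over 7 alpha markers, the level was 101400 to 177000 RPKM (reads per kilobase of transcript, scaled to library size) in the alpha libraries and 598.7 to 2512 RPKM in the beta libraries. The sum over 8 beta markers was 212400 to 390300 RPKM in beta and 806.1 to 6109 RPKM in alpha libraries. Markers of delta cells, at 2513 to 5180 RPKM, and of pancreatic polypeptide cells, at 27830 to 59540 RPKM, were also present in the alpha libraries. In the beta libraries their sums were 644.8 to 1421 RPKM and 359.4 to 1730 RPKM.

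Ucn3 (ENSMUSG00000044988) lies on the minus strand of mouse chromosome 13, at 3940688 to 3945349 in GRCm38 (mm10), with 1 annotated transcript of 2 exons. Edn3 (ENSMUSG00000027524) lies on the plus strand of chromosome 2, at 174760619 to 174784042, with 4 annotated transcripts of up to 5 exons. No annotated gene overlaps either of them, so their reads are not shared with an antisense partner. The 250 bases before the start of each gene, from RefSeq on GRCm38.p6, are shown because the results below turn on which cell type each gene is read in and on how its level varied over the day. The first is chr13:3945350-3945599 on the minus strand and the second chr2:174760369-174760618 on the plus strand, both written 5′ to 3′ along the gene. Capitals mark the homeobox core TAAT, on either strand, in the Ucn3 sequence and the E-box core CANNTG in the Edn3 sequence.
Ucn3: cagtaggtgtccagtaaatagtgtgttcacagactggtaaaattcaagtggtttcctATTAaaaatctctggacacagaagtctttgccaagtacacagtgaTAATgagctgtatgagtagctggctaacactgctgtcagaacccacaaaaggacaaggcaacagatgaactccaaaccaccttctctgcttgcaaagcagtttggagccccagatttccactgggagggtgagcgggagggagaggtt
Edn3: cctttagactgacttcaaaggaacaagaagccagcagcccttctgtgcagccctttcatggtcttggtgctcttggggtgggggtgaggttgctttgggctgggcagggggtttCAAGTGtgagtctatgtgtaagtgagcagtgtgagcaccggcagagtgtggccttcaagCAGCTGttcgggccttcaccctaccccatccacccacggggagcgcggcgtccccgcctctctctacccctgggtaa

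The Ucn3 window held 2 matches to TAAT, a core found in 54.9% of the 32851 mouse promoter windows of this length, and the Edn3 window held none. CANNTG matched at 2 places in each window and is found in 66.2% of all windows. It includes the clock E-box CACGTG, which is found in 6.02% of windows and matched neither gene. The D-box TTATGTAA (0.819% of windows), the RORE core AGGTCA (14.0%), the MAF half-site TGCTGA (16.1%), the forkhead core TGTTTA (12.03%), the cAMP response element TGACGTCA (1.55%) and the TATA box TATAAA (12.4%) did not match in either window. All motifs were searched on both strands. These matches describe letters, not binding sites, and a missing match says only that the letters are not in this window. GC content was 46.4% for Ucn3 and 59.2% for Edn3, against a median of 52.4% over all windows.

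Ucn3 was among the most abundant transcripts of beta cells. Its level in the 12 beta libraries had a lowest value of 246.5 RPKM (ZT8, replicate 2), a median of 298.9 and a highest value of 340.7 RPKM (ZT8, replicate 1), with a mean of 299.3 ± 29.7 (SD, n = 12). That mean was rank 64 of all 14027 genes. Both extremes came from the same time point, and no library stood apart from the rest. The coefficient of variation was 9.91%, on 3066 to 5225 reads per library whose counting error was about 1.53%. Of the genes with at least 4 RPKM in beta cells, 20.6% varied less. In the alpha libraries Ucn3 had a lowest value of 0.639 RPKM (ZT12, replicate 2), a median of 1.80 and a highest value of 9.61 RPKM (ZT4, replicate 1). The next highest alpha library was ZT16 replicate 1, at 6.49 RPKM, and all 12 stood below every beta library. The lowest beta value was 25.6 times the highest alpha value, and the ratio of the mean RPKM values was 111.4. Because these are bulk libraries, fewer cells of a type and less RNA per cell cannot be told apart.

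Edn3 was read in the opposite cell type and at a lower level. In the 12 alpha libraries its lowest value was 31.1 RPKM (ZT20, replicate 1), its median 41.8 and its highest 57.8 RPKM (ZT8, replicate 1), with a mean of 42.7 ± 7.42 (SD, n = 12). That mean was rank 730 of all genes. In the 12 beta libraries the lowest value was 0.0518 RPKM (ZT20, replicate 1), the median 0.166 and the highest 0.645 RPKM (ZT4, replicate 1). The groups did not overlap: the lowest alpha value was 48.1 times the highest beta value, and the ratio of the mean RPKM values was 199.1. The alpha values rest on 934 to 2443 reads per library, with a counting error of about 2.29%. The beta values rest on 2 to 28 reads per library and 104 reads in all. Among 25 measured genes of peptide precursors and secreted signals, ordered by mean RPKM within a cell type, Ucn3 was the 9th in beta cells and Edn3 the 12th in alpha cells. Edn3 stood there between Nucb1 at 68.9 RPKM, a gene of the nucleobindin family, and Nucb2 at 40.5 RPKM, the precursor of nesfatin.

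**Figure D1:**
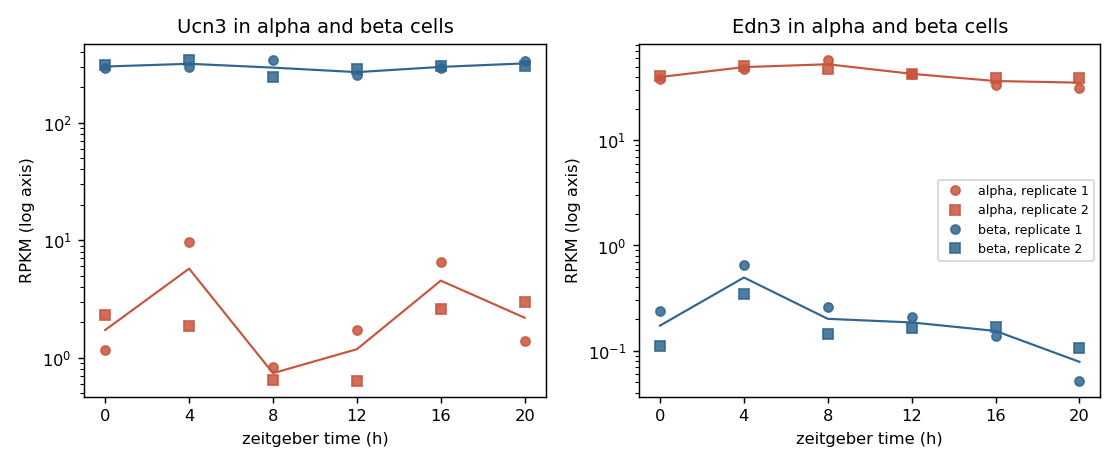
Level of Ucn3 (left) and Edn3 (right) in each library, in RPKM on a log axis, against zeitgeber time in hours, with circles for replicate 1, squares for replicate 2 and lines through the mean of each time. For Ucn3 the 12 beta libraries lie between 246.5 and 340.7 RPKM, and the alpha libraries peak at ZT4 and ZT16 in replicate 1; for Edn3 every alpha library lies above every beta library.

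The size of the gap between the cell types differed between times. For Ucn3 the fold on the deposited log2 scale was 169.5 at ZT0, 71.7 at ZT4, 333.9 at ZT8, 224.0 at ZT12, 70.2 at ZT16 and 146.3 at ZT20. The beta means at those times lay between 268.8 and 319.0 RPKM, while the alpha means ran from 0.742 RPKM at ZT8 to 5.74 RPKM at ZT4. For Edn3 the fold was smallest at ZT4, at 94.8, and largest at ZT20, at 285.0.

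The few Ucn3 reads in alpha libraries were compared with those of other genes restricted to beta cells. The mean Ucn3 level in alpha libraries was 0.898% of the beta mean, with an exact Poisson 95% interval of 0.823% to 0.977% from 534 reads. Such intervals cover counting error only. Single alpha libraries ranged from 0.214% to 3.21%, a spread far wider than that interval. Without the alpha libraries of ZT4 replicate 1 and ZT16 replicate 1 the value was 0.539%. The insulin genes stood at 0.631% for Ins1 and 0.670% for Ins2, and Iapp, the amylin gene, stood at 1.77%. The glucose transporter gene Slc2a2 stood at 0.820%, the transcription factor gene Mafa at 1.08% and the glucose-6-phosphatase gene G6pc2 at 1.17%. Over 11 such genes the median was 0.931%, and 4 of the 11 stood lower than Ucn3. The alpha library with the highest Ucn3 value, ZT4 replicate 1, was also the highest for 10 of these 11 genes, the exception being Mafa, which was highest in ZT16 replicate 1.

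Across the 12 alpha libraries the reads of Ucn3 followed those of the insulin genes. Pearson's r between Ucn3 and summed Ins1 and Ins2 reads, each scaled to library size, was 0.97 (two-sided permutation p = 2e-05, adjusted p = 4e-05 over 2 relations, n = 12). Spearman's rho was 0.99 with the same permutation p, the smallest that 100000 permutations can give. Without ZT4 replicate 1 and ZT16 replicate 1, the libraries farthest from the median insulin value, r was 0.91 and rho 0.99 (n = 10). The 5 beta markers other than Ins1, Ins2 and Iapp summed to 23.0 to 75.3 RPKM between alpha libraries. Their means by time were highest at ZT4 (51.5 RPKM) and ZT16 (42.1 RPKM), as were those of Ucn3. The part these reads have in the Ucn3 reads was not tested.

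Edn3 in beta libraries was set beside genes restricted to alpha cells in the same way. Its mean was 0.502% of the alpha mean (exact Poisson 95% interval 0.411% to 0.609%, 104 reads), with single beta libraries from 0.121% to 1.51%. Without beta ZT4 replicate 1 it was 0.411%. The glucagon gene Gcg stood at 0.229%, and at 0.111% without that library. The transcription factor genes Irx1 and Irx2 stood at 0.253% and 0.670%, and the somatostatin receptor gene Sstr2 at 0.557%. Over 9 such genes the median was 0.304%, and 7 of the 9 stood lower than Edn3. All 9 were highest in beta ZT4 replicate 1, the library in which Edn3 was highest too.

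Over the 12 beta libraries no relation between Edn3 and Gcg reads passed. Pearson's r was 0.41 (two-sided permutation p = 0.18, adjusted p = 0.18, n = 12) and Spearman's rho 0.04 (permutation p = 0.91, adjusted p = 0.91). Without ZT4 replicate 1 and ZT8 replicate 1, the libraries farthest from the median Gcg value, r was -0.07 and rho -0.05 (n = 10). At 2 to 28 Edn3 reads per library, a weak relation was not detectable.

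**Figure D2:**
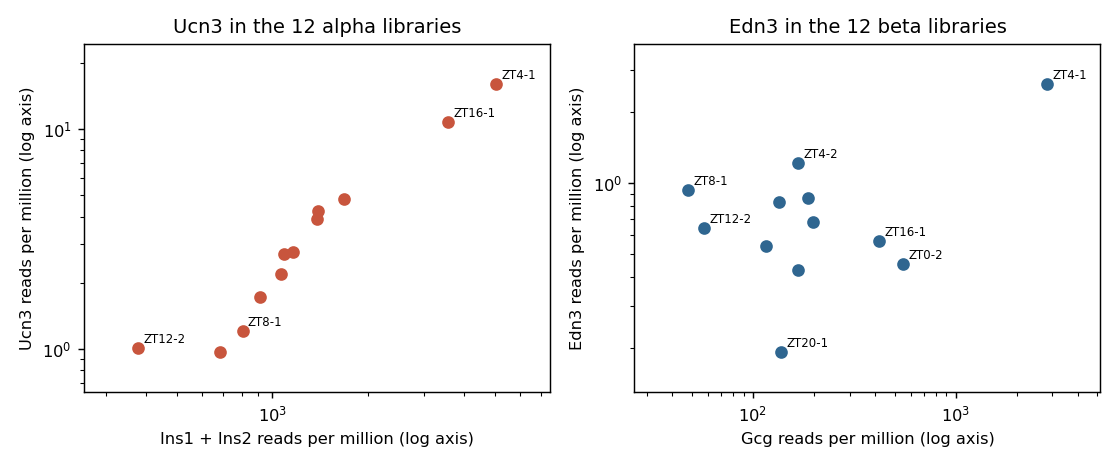
Reads of Ucn3, scaled to library size, against those of Ins1 and Ins2 in the 12 alpha libraries (left) and of Edn3 against Gcg in the 12 beta libraries (right), both axes logarithmic, each point 1 library, with some labelled by time and replicate. Libraries with more insulin reads had more Ucn3 reads along the whole range (r = 0.97), while Edn3 and Gcg reads scatter (r = 0.41).

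Ucn3 in beta cells did not pass the test for a daily rhythm. Its replicate pairs were 293.5 and 306.4 RPKM at ZT0, 294.5 and 338.5 at ZT4, 340.7 and 246.5 at ZT8, 253.6 and 283.9 at ZT12, 292.2 and 303.3 at ZT16, and 332.5 and 305.4 at ZT20. The 2 libraries of ZT8 differed by more than any pair of time means. A 24 h cosine fitted to all 24 libraries gave a peak-to-trough fold of 1.14, or 0.18 on the log2 scale (SE 0.65), with a limma adjusted p of 0.98. Fitted to the 12 beta libraries alone, the range was the same with an SE of 0.13 and the adjusted p was 0.55, where 6.37% of all genes passed. In alpha cells the Ucn3 fold was 2.16, on 5 to 160 reads per library, with an adjusted p of 0.43.

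Edn3 in alpha cells was higher at ZT4 and ZT8 than at the other times, and its rhythm passed in some fits and not in others. Its replicate pairs were 38.6 and 41.1 RPKM at ZT0, 47.9 and 51.1 at ZT4, 57.8 and 47.5 at ZT8, 42.5 and 42.9 at ZT12, 33.8 and 39.2 at ZT16, and 31.1 and 39.4 at ZT20. The 4 libraries of ZT4 and ZT8, at 47.5 RPKM or more, all stood above the 8 others, at 42.9 RPKM or less. The cosine gave a peak-to-trough fold of 1.52 with a peak at ZT 6.7. In the model of all 24 libraries the log2 range of 0.60 had an SE of 0.31 and did not pass (limma, Benjamini-Hochberg adjusted p = 0.35). With the 12 alpha libraries alone the SE was 0.11, the peak 6.7 ± 0.7 h (SE) and the adjusted p 0.020, where 8.48% of all genes passed. It also passed on log2(RPKM + 1) values (adjusted p = 0.00548) and with voom precision weights on the recovered reads (adjusted p = 0.00697). It did not pass on log2(RPKM + 0.1) values (adjusted p = 0.241) or after a filter at a mean log2 RPKM of 0 (0.341). Nor did it pass with a replicate block (0.358) or with time as 6 levels (0.568). The call from alpha libraries alone was lost without ZT8 replicate 1 (adjusted p = 0.076) and without ZT20 replicate 1 (adjusted p = 0.056).

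Beside this time course, Gcg, which makes up most of the summed alpha markers, averaged 124300, 124100, 156900, 131300, 98920 and 116200 RPKM from ZT0 to ZT20 in alpha libraries. The other 6 alpha markers summed to 8697, 8896, 11190, 8585, 6405 and 7577 RPKM. The 3 markers of pancreatic polypeptide cells summed to 38190, 44890, 53040, 41060, 30260 and 32010 RPKM. All 3 series were highest at ZT8 and lowest at ZT16. Edn3 averaged 39.8, 49.5, 52.7, 42.7, 36.5 and 35.2 RPKM from ZT0 to ZT20. The part of these markers in the Edn3 time course was not tested. As controls, the clock genes Nr1d1 and Arntl had peak-to-trough folds of 7.995 and 7.38 in alpha cells (limma adjusted p = 5.7e-09 and 0.00015), so that the Edn3 range was small beside theirs.

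In beta cells the Edn3 cosine had a fold of 2.57 and a peak at 5.9 ± 0.9 h (SE), with a limma adjusted p of 0.017 in the model of all libraries. The replicate pairs behind it were 9 and 4 reads at ZT0, 28 and 13 at ZT4, 11 and 6 at ZT8, 7 and 7 at ZT12, 6 and 7 at ZT16, and 2 and 4 at ZT20. The beta library with the highest Gcg level, ZT4 replicate 1, was also the one with 28 Edn3 reads, and without it the fold was 1.99 (adjusted p = 0.0321). The call was lost with the 12 beta libraries alone (adjusted p = 0.12), on log2(RPKM + 1) values (0.12) and with voom weights (0.0696). The difference of the Edn3 rhythm between the cell types did not pass in limma (adjusted p = 0.92), where 0.0713% of all genes passed and 7.66% had an unadjusted p under 0.05.

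**Figure D3:**
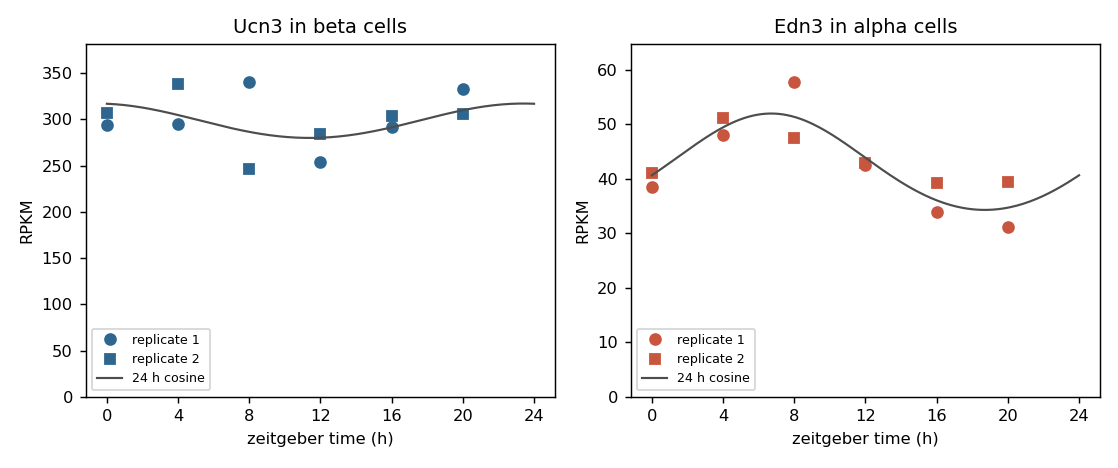
Ucn3 in beta cells (left) and Edn3 in alpha cells (right) in RPKM on axes from 0, against zeitgeber time in hours, with circles for replicate 1, squares for replicate 2 and the fitted 24 h cosine as a line. The Ucn3 points of ZT8 span 246.5 to 340.7 RPKM, and the 4 Edn3 points of ZT4 and ZT8 lie above the other 8.

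Of the other genes of the corticotropin-releasing factor family, Crhr1 was measured; Crh, Ucn, Ucn2, Crhr2 and Crhbp were not analysed here. Crhr1 encodes the receptor for corticotropin-releasing factor and the first urocortin, for which the Ucn3 peptide has little affinity. It was read at 1.63 ± 0.79 RPKM (SD, n = 12; 468 reads) in beta cells and gave 6 reads in the 12 alpha libraries. The difference passed (limma adjusted p = 7.2e-15), as it did for 20.7% of all genes by the rule of a 2-fold or larger difference and an adjusted p under 0.05. Crhr1 also passed for a rhythm in beta cells, with a fold of 3.32, a peak at ZT 1.0 ± 0.8 h (SE) and a limma adjusted p of 0.0072, where 16% of all genes passed. Its replicate pairs were 1.93 and 2.44 RPKM at ZT0, 3.01 and 1.65 at ZT4, 1.41 and 1.96 at ZT8, 0.447 and 0.545 at ZT12, 0.892 and 1.45 at ZT16, and 2.51 and 1.36 at ZT20. Both libraries of ZT12 stood below the 10 others. With the beta libraries alone the adjusted p was 0.036.

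Among the endothelin genes, Edn2, Ednra, Ece1 and Ece2 were measured besides Edn3; Edn1, Ednrb, Ecel1, Mme and Kel were not analysed here. Edn2, the gene of another endothelin, was read in the other cell type than Edn3. It stood at 0.869 ± 0.285 RPKM (SD, n = 12; 148 reads) in beta cells, against 10 reads in the 12 alpha libraries (limma adjusted p = 1.3e-12). Its level in beta cells was far below that of Edn3 in alpha cells. Ece1, the main endothelin-converting enzyme, was abundant in both, at 59.9 ± 7.34 RPKM in alpha against 118.9 ± 9.47 RPKM in beta cells (SD, n = 12 each). Its 12 beta libraries did not overlap the 12 alpha libraries, and its fold of 1.99 missed the fold of 2 (limma adjusted p = 1.9e-13). Ece2, a related enzyme, stood at 3.38 and 4.18 RPKM.

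Ednra, the endothelin receptor of smooth muscle, was higher in the cell type that also held more Edn3. It stood at 0.888 ± 0.441 RPKM (SD, n = 12; 744 reads) in alpha and 0.225 ± 0.137 RPKM (168 reads) in beta cells, a 3.68-fold difference (limma adjusted p = 5.6e-10) with overlapping libraries. Of 5 measured marker genes of stromal cells, which express this receptor, Col1a2 stood at 4.41 RPKM in alpha against 0.0856 RPKM in beta cells. The sum of the 4 others was 0.802 to 2.50 RPKM in alpha and 0.325 to 0.924 RPKM in beta libraries, with 3 of the 4 called higher in alpha cells at folds of 2.00 to 2.15 and Col3a1 not called. None of the 5 was at 0 in all libraries, and their part in the Ednra level was not tested. Ednra passed for a rhythm in both cell types, with a fold of 3.17 and a peak at ZT 19.8 ± 0.8 h (SE) in alpha cells (adjusted p = 0.011, where 9.66% of all genes passed) and a fold of 3.20 and a peak at ZT 17.9 ± 0.8 h in beta cells (adjusted p = 0.0061). In alpha cells its lowest pair was 0.403 and 0.440 RPKM at ZT8 and its highest 1.86 and 1.19 RPKM at ZT20. The time with the highest Edn3 mean was thus the time with the lowest Ednra mean in alpha cells. Of the stromal markers in alpha cells, Col1a2 averaged 5.19 RPKM at ZT8 and 3.98 RPKM at ZT20. Pdgfrb passed for rhythm with a peak at ZT 8.0 (limma adjusted p = 0.038, and 0.059 with the alpha libraries alone). Col1a1, Col1a2, Col3a1 and Rgs5 had peaks at ZT 23.0, 3.9, 0.7 and 4.4 without passing (limma adjusted p = 0.10, 0.25, 0.62 and 0.41). With the alpha libraries alone Col1a2 passed (limma adjusted p = 0.033). The delta markers summed to 3384 RPKM at ZT8, 2809 RPKM at ZT12 and 4465 RPKM at ZT20, of which Sst was 3123, 2615 and 4263 RPKM. In alpha cells Sst, Hhex, Ptprz1 and Ghsr had folds of 1.36, 2.40, 3.35 and 2.54, with peaks at ZT 20.2, 19.5, 20.2 and 21.7. Rbp4, another delta marker, had a fold of 1.24 and a peak at ZT 5.9. No delta marker passed for rhythm there (limma adjusted p = 0.38, 0.067, 0.057, 0.061 and 0.51 in that order). With the alpha libraries alone Ghsr passed (limma adjusted p = 0.04). The part of the stromal and delta markers in the Ednra time course was not tested. The alpha call of Ednra was lost when time was fitted as 6 levels (limma adjusted p = 0.0507), where 3.79% of all genes passed. The beta call held there (adjusted p = 0.0264), where 8.64% passed, and was lost on log2(RPKM + 1) values (adjusted p = 0.0726).

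**Figure D4:**
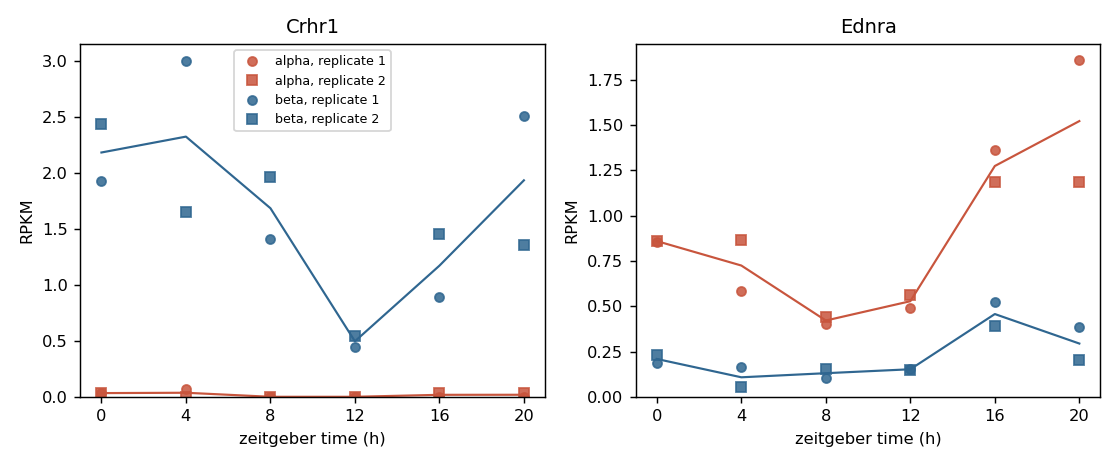
Crhr1 (left) and Ednra (right) in RPKM on axes from 0, against zeitgeber time in hours, alpha cells in red and beta cells in blue, with circles for replicate 1, squares for replicate 2 and lines through the means. Crhr1 in beta cells is lowest at ZT12 in both replicates, and Ednra is lowest at ZT8 and highest at ZT20 in alpha cells.

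The pathway lists held genes that make, receive and relay these peptides, maturity genes that Ucn3 is used beside, and alpha cell transcription factor genes. They came to 67 measured of 81 listed genes other than Ucn3 and Edn3. Of them 19 were higher in alpha cells, where 11.2% of all genes were, and 14 were higher in beta cells, where 9.54% were. The maturity list gave 9 of the 14, and the list of alpha cell transcription factors gave 5 of the 19. Both lists hold cell type markers, so the counts beside all genes describe the lists and not the peptide pathways alone. Over all genes the split was 1565 higher in alpha and 1338 higher in beta cells, and on log2(RPKM + 1) values it was 690 and 912. The median log2 difference between alpha and beta cells was -0.09 for the 67 genes and 0.01 for all genes. For rhythm, 6 of the 67 passed in alpha cells, where 9.66% of all genes did, and 11 in beta cells, where 16% did, so both counts were near the share over all genes. The 6 included Ednra, Prkacb, Esrrg and the beta cell genes Mafa and Pdx1, which stood at 1.99 and 2.695 RPKM in alpha cells and 183.9 and 60.3 RPKM in beta cells. With the alpha libraries alone Esrrg (limma adjusted p = 0.059), Mafa (0.087) and Pdx1 (0.11) did not pass, while Ednra and Prkacb did.

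Of 11 genes that process peptide precursors, 2 passed as higher in alpha cells and 1 as higher in beta cells, near the 11.2% and 9.54% of all genes. Pcsk1, the prohormone convertase that matures insulin, stood at 370.5 ± 44.0 RPKM in beta against 5.87 ± 2.78 RPKM in alpha cells (SD, n = 12 each), a 67.9-fold difference. Pcsk1n, the gene of an inhibitor of that enzyme, was 2.18-fold higher in alpha cells, and Pcsk5, another convertase, gave 478 reads in alpha and 12 in beta libraries. Furin, which makes the first cut in endothelin precursors, stood at 8.43 ± 1.65 RPKM in alpha against 7.94 ± 1.75 RPKM in beta cells and did not pass. Pam, the enzyme that amidates peptides such as that of Ucn3, stood at 193.8 RPKM in alpha against 117.3 RPKM in beta cells, a fold of 1.64.

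Of 12 genes of signalling through Gs proteins, the route used by receptors of the Ucn3 family, 5 were higher in alpha cells. Over all genes that share was 11.2%. The list had 0 calls in the opposite direction, in which 9.54% of all genes were called. The 5 were Gnas and the adenylyl cyclase genes Adcy3, Adcy5, Adcy6 and Adcy8. Gnas, which encodes the Gs alpha subunit, stood at 245.0 ± 11.6 RPKM in alpha against 67.5 ± 3.68 RPKM in beta cells. Alpha means of these cyclase genes, in that order, were 2.77, 1.73, 49.3 and 0.189 RPKM. Their beta means were 0.642, 0.0508, 18.55 and 0.0429 RPKM. Adcy8 rests on 130 reads in alpha and 26 in beta libraries, with overlapping levels. The cyclase gene Adcy9 went the other way, at 15.1 RPKM in alpha against 26.8 RPKM in beta cells, and its fold of 1.78 missed the fold of 2. Prkacb, a catalytic subunit of protein kinase A, passed for rhythm in both cell types with a peak at ZT 7.1 in each, at folds of 1.61 in alpha (limma adjusted p = 0.030) and 1.75 in beta cells (adjusted p = 0.0085). Of 10 genes of signalling through Gq proteins, the route of endothelin receptors, 2 passed as higher in alpha cells and 2 as higher in beta cells. The shares of all genes were 11.2% and 9.54%. Itpr1, a calcium release channel, was 6.82-fold and Rgs4, a regulator that shortens Gq signals, 11.0-fold higher in alpha cells. The related channel Itpr2 was 6.15-fold and the protein kinase C gene Prkca 2.60-fold higher in beta cells.

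Of the somatostatin genes through which the Ucn3 peptide acts, 3 were measured and 2 were higher in alpha cells, where 11.2% of all genes were. Sst stood at 3377 ± 760.7 RPKM in alpha against 1109 ± 242.6 RPKM in beta libraries (SD, n = 12 each), beside the delta markers given above, whose part in it was not tested. Sstr2, the receptor through which somatostatin restrains glucagon release, stood at 13.4 ± 3.05 RPKM in alpha against 0.0748 RPKM in beta cells. Sstr3 stood at 49.5 RPKM in alpha against 77.8 RPKM in beta cells, a fold of 1.57, and passed for rhythm in beta cells (limma adjusted p = 0.025), but not with the beta libraries alone (adjusted p = 0.056).

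Of 21 genes linked to beta cell maturity, 9 passed as higher in beta cells and 3 as higher in alpha cells, against 9.54% and 11.2% of all genes. The list holds beta markers such as Mafa, Pdx1 and Nkx6-1, so these counts are a description. The 9 were Mafa, Pdx1, Nkx6-1, Slc2a2, G6pc2, Ero1lb, Syt4, Aldh1a3 and Npy, and the 3 included the hexokinase gene Hk1 and the lactate carrier gene Slc16a1. In beta cells 5 of the 21 passed for rhythm, against 16% of all genes, among them G6pc2, with a fold of 2.08 and a peak at ZT 8.1 (limma adjusted p = 0.048), the transcription factor gene Isl1 (0.018, and 0.068 with the beta libraries alone), the vesicle protein gene Syt4 and Aldh1a3, an aldehyde dehydrogenase gene, with a fold of 3.76 and a peak at ZT 16.2 (adjusted p = 0.024). With the beta libraries alone Slc2a2 passed at a fold of 2.15 (adjusted p = 0.013) and Mafa at 2.29 (adjusted p = 0.036), while Ucn3, at 1.14, did not. In the model of 24 libraries neither Slc2a2 (limma adjusted p = 0.22) nor Mafa (0.31) passed in beta cells. Whether Ucn3 differs from these genes in its rhythm was not tested. Of 8 measured alpha cell transcription factor genes, 5 were higher in alpha cells, among them Irx1, Irx2 and Pou3f4, against 11.2% of all genes. That list holds alpha markers such as Irx1 and Irx2, so its count is a description too.

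The genes whose levels were most like Ucn3 across the 12 beta libraries, by Pearson's r of log2 values over 7740 genes, were Cdh1, the E-cadherin gene (0.91), the semaphorin gene Sema4b (0.88), the integrin gene Itga3 (0.87), the lysosomal glucosidase gene Gaa (0.86), the exporter gene Abcc4 (0.84) and Phyhip (0.84). For Edn3 across the 12 alpha libraries and 7776 genes they were the zinc finger gene Zfp229 (0.95), the transporter genes Dirc2 (0.94) and Slc7a4 (0.93), the chitobiase gene Ctbs (0.93), the linker histone gene H1f0 (0.92) and Fubp3 (0.92). The median r over all genes was 0.03 for Ucn3 and 0.14 for Edn3. These values rest on 12 points that share libraries and depth and are given as a description. None of these 12 genes is a gene of either peptide's pathway list. Cdh1 stood at 88.9 RPKM in beta against 31.1 RPKM in alpha cells, while Zfp229 stood at 4.37 RPKM in alpha against 3.43 RPKM in beta cells.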

How the data were processed

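STAR, edgeR and the build mm10 are named, per the submitters' processing notes, with no role or version. The authors deposited 1 table of log2 RPKM values for 14027 genes and 24 libraries, in which the values show a prior count added per library. All 24 value columns were matched to the sample titles. Whole reads were recovered from the steps of the values for all 14027 genes (100.0% of values within 9.4e-08 of a whole number), and RPKM without the prior count was computed from them. Replicate libraries differed by more than sampling noise (chi-square per gene 2.52 to 46.6).

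Because the values are on a log2 scale, limma 3.58.1 (R 4.3.3) with trend and robust variance was used across all genes, with Benjamini-Hochberg adjustment. Rhythm was tested with a 24 h cosine within each cell type in 1 model of 24 libraries. Cell types were compared with time as a factor, and a call needed a 2-fold or larger difference with an adjusted p under 0.05. Fold changes are on the deposited log2 scale, which understates them for genes with few reads. Scripts were tested on simulated data. Gene positions come from GENCODE, in which 13802 of the 14027 identifiers were found.

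The named genes are Ucn3, Edn3, the genes of lists of relatives, receptors, converting enzymes, signalling and maturity genes, the 6 genes most like each member, and measured neighbours within 500 kb. The members and lists were chosen with earlier results of these data known. Alternatives were other pseudocounts (1 and 0.1), a filter at a mean log2 RPKM of 0, a replicate block, time as 6 levels, single cell types, each library left out and, added after seeing the data, voom. Some listed genes are counted but not reported singly here.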

Additional observations from a re-analysis of the deposited data

How the results depend on the processing

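Ucn3 in beta cells failed the rhythm test in every alternative run (fold 1.088 to 1.205 with 1 library left out). Edn3 in alpha cells failed it in the model of 24 libraries with each library left out (fold 1.446 to 1.604) and passed on log2(RPKM + 1) values (fold 1.505), in the 12 alpha libraries alone (1.519) and with voom weights (1.519). It failed on log2(RPKM + 0.1) values (fold 1.518), after the filter (1.519), with a replicate block (1.519) and with time as 6 levels (1.498). In the alpha libraries alone with 1 left out it passed 10 of 12 times, at folds of 1.514 and 1.521 (without ZT0 replicates 1 and 2), 1.534 and 1.502 (ZT4), 1.57 (ZT8 replicate 2), 1.523 and 1.522 (ZT12), 1.488 and 1.564 (ZT16) and 1.604 (ZT20 replicate 2). The model of 24 libraries uses 1 estimate of the spread per gene for both cell types. For the Edn3 log2 range in alpha cells its SE was 0.31, against 0.11 in the alpha libraries alone. In beta cells Edn3 rests on 2 to 28 reads per library. The part of this shared spread in which fits passed was not tested. Mean levels with 1 library left out were 295.5 to 304.1 RPKM for Ucn3 and 41.4 to 43.8 RPKM for Edn3, and the levels in the other cell type 0.688% to 0.960% and 0.411% to 0.537%.

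Counts of rhythmic genes depended on single libraries. In alpha cells 1355 genes passed, and 348 (without ZT8 replicate 1) to 2252 (without ZT4 replicate 1) with 1 left out. It was also moved by over 1.5 times without ZT8 replicate 2 (757), ZT12 replicates 1 and 2 (879 and 822), ZT16 replicates 1 and 2 (676 and 619) and ZT20 replicate 1 (726). In beta cells 2241 passed, and 1077 (without ZT16 replicate 2) to 3100 with 1 left out, with 1269 without ZT4 replicate 2, 1330 without ZT8 replicate 1 and 1120 without ZT16 replicate 1. Pathway genes numbered 1 to 15 in alpha cells (1, 3, 2, 10 and 15 without ZT8 replicate 1, ZT8 replicate 2, ZT16 replicate 2, ZT0 replicate 1 and ZT4 replicate 1) and 8 to 14 in beta cells. Time as 6 levels gave 531 genes in alpha and 1212 in beta cells, with 2 and 7 pathway genes, and beta libraries alone gave 894. Cell types differed for 2903 genes (2872 to 2939 with 1 left out; 33 to 35 pathway genes), 1602 on log2(RPKM + 1) values and 1755 after the filter, which tests fewer genes.

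The deviations of same-numbered alpha and beta libraries had correlations of 0.70, 0.52, 0.45, 0.15, 0.15 and 0.02 from ZT0 to ZT20. They were above 0.1 at 5 of 6 times, a hint from the data that some may come from the same mice, which the labels do not state. The numbers were not taken as pairs, since that asked for every time to exceed 0.1. The replicate block of the rhythm fits was 1 term for replicate number over all times, not a pairing of alpha and beta libraries. With this block 1235 genes passed for rhythm in alpha and 2046 in beta cells, and Edn3 in alpha cells had a limma adjusted p of 0.358. Rhythm was not tested with same-numbered libraries as pairs. Crhr1 and Ednra are below the filter and gave no value there. The planned edgeR and DESeq2 alternatives were not run, since the deposited unit is log2. At 2 to 28 reads, depth limits Edn3 in beta cells.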

Other observations

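Some genes near Ucn3 and Edn3 on the chromosome were higher in the same cell type. Within 500 kb of Ucn3, 9 of 32 other annotated genes were measured; 4 of the 9 were higher in beta cells (limma, adjusted p under 0.05 and 2-fold or more), against 9.54% of all genes. The other 5 stood at folds of 1.41 or less. The 4 were Net1, 22.5 kb away (2.02 RPKM in alpha against 5.74 RPKM in beta cells), and the aldo-keto reductase genes Akr1c14, at 103.7 kb (6.35-fold), Akr1c12 (3.55-fold) and Akr1c13 (2.47-fold). The Akr1c genes are closely related copies between which reads may be split, and their relative Akr1c19, at a fold of 1.05, did not pass.

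Within 500 kb of Edn3, 9 of 34 other annotated genes were measured, and 4 of them were higher in alpha cells, against 11.2% of all genes. These were Gnas, 413.9 kb away (3.63-fold), Gm20721, which overlaps Gnas on the other strand, the cathepsin gene Ctsz at 321.6 kb (98.2 RPKM in alpha against 30.6 RPKM in beta cells) and the tubulin gene Tubb1 at 302.7 kb (4.12-fold). The nearest measured genes, Slmo2 at 287.5 kb and Atp5e at 296.5 kb, stood at folds of 1.05 and 1.04. Neighbours were not tested as a group, and whether position has a part in the restriction was not tested.

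Of the other peptide genes measured, Pdyn, the precursor of dynorphins, stood at 31.4 ± 8.65 RPKM in beta cells (SD, n = 12), 21.4-fold above alpha cells, and passed for rhythm there with a fold of 2.03 and a peak at ZT 1.3 ± 1.0 h (SE; limma adjusted p = 0.027). Wnt4, a secreted Wnt ligand at a like level in both cell types (fold 1.01), passed in both, with a fold of 1.90 and a peak at ZT 16.7 ± 0.7 h in beta cells (adjusted p = 0.0046). In alpha cells its fold was 1.61 (adjusted p = 0.038, and 0.051 with the alpha libraries alone).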
